A study of Mus musculus with 16 samples.

Results

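Glutamate and GABA receptor subunit genes were examined in mouse brain tumours and normal mouse brain. The set was a list of 36 gene symbols, and a gene was taken as measured when at least 1 probe set of the array carried that symbol alone. Measured genes numbered 35 of the 36, among 19938 genes with such a probe set. Grin1, the obligatory NMDA receptor subunit, was not analysed here.

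The study profiled 16 samples on Affymetrix arrays, 4 in each of 4 groups. PDGF+p53-/- tumours (called PDGF-p53 tumours here) arose in floxed p53 mice given a retrovirus that carries PDGF-B, a glial growth factor, together with the Cre recombinase, and kept wild-type RBPjk. PDGF+p53-/-RBPjk-/- tumours (PDGF-p53-RBPjk) arose with the same retrovirus in mice floxed for both p53 and RBPjk, the DNA-binding partner of activated Notch. The p53-/-RBPjk-/- tumours (p53-RBPjk) received no PDGF virus, and both floxed genes were deleted by a Hes5::CreERT2 transgene, which acts in Hes5-expressing cells. Normal brain, wild type for PDGF, p53 and RBPjk, was the control. Tumours were dissected from sick mice by a Cre-dependent GFP signal, so that each sample could include host brain. Ages and the brain region of the controls are not stated in the labels. The labels do not say that the 4 samples of a group came from separate animals, so p-values measure only the spread between these samples, which may be technical.

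The excitatory transmitter glutamate acts on ion channel receptors of the AMPA, kainate and NMDA types and on G-protein-coupled metabotropic receptors. The inhibitory transmitter GABA acts on GABA-A receptors, which are chloride channels assembled from several subunits, and on GABA-B receptors, which are G-protein-coupled pairs of Gabbr1 and Gabbr2. Most of these genes are known from neurons, but astrocytes and oligodendrocyte precursors also carry glutamate and GABA-A receptors, and precursors receive synapses from neurons.

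Levels are the authors' log2 RMA values, on which a difference of 1 is 2-fold. A gene was said to rise or fall when limma gave a Benjamini-Hochberg adjusted p under 0.05 over all 19938 genes. Errors are the standard deviation (SD) over 4 arrays for a level and limma's standard error (SE) for a difference. The 3 comparisons with normal brain share the same 4 control arrays.

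Several lists of markers of the cell types that the samples could hold differed between groups. All 15 neuron markers fell in each tumour type, with median differences of -2.86 in PDGF-p53, -2.68 in PDGF-p53-RBPjk and -3.74 in p53-RBPjk tumours. Their mean per array was 7.52 to 8.82 in PDGF-p53, 7.24 to 8.43 in PDGF-p53-RBPjk and 6.70 to 7.75 in p53-RBPjk tumours, against 10.48 to 10.66 in normal brain. All 12 oligodendrocyte precursor markers rose in each tumour type, by a median of 2.16, 2.21 and 1.74 in that order of tumours. The astrocyte marker mean was 7.52 to 8.77, 7.61 to 8.17 and 7.27 to 7.61 in the tumours, against 9.27 to 9.45 in normal brain. Of 9 mature oligodendrocyte markers 7, 6 and 7 fell (medians -1.71, -1.42 and -2.66), with means per array of 6.35 to 8.45, 6.83 to 7.55 and 6.31 to 6.66, against 8.00 to 9.52 in normal brain. Of 9 microglia and macrophage markers 1 rose in each type and 0, 0 and 6 fell (medians -0.17, -0.06 and -0.66), and of 8 endothelial markers 0, 0 and 1 rose and 2, 2 and 3 fell (medians -0.07, 0.01 and -0.26). Of all genes 13.6%, 15.7% and 16.4% rose and 17.6%, 17.9% and 20.4% fell in those tumours. The Rbpj probe set read 7.55 to 7.88 in PDGF-p53-RBPjk, 7.64 to 7.93 in p53-RBPjk and 8.17 to 8.50 in PDGF-p53 tumours, against 7.76 to 8.21 in normal brain, and whether it lies in the deleted exons is not stated in the sources used here. The Pdgfb probe set read 5.81 to 6.31 in PDGF-p53, 5.88 to 6.19 in PDGF-p53-RBPjk and 5.23 to 5.77 in p53-RBPjk tumours, against 5.69 to 6.20 in normal brain, so that the PDGF tumours overlapped normal brain. Whether this probe set reads the viral transcript is not stated either. In whole tissue, fewer cells of a type and less RNA per cell cannot be told apart, and the part of cell composition in the differences below was not tested.

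Promoter sequence is shown for 3 of the genes to which the results return, because Gabrg1 and Gabra2 are neighbours of which Gabra2 fell in the PDGF tumours and Gabrg1 did not pass the test there, and because Grm3 holds a motif that RBPJ binds. The 3 windows overlap no annotated gene. Each is the 250 bases before the RefSeq transcript start in build GRCm38.p6, 5′ to 3′ on the minus strand, at chr5:9725353-9725602 for Grm3, chr5:70842618-70842867 for Gabrg1 and chr5:71095850-71096099 for Gabra2. Capitals mark matches on either strand to TGGGAA, the core that RBPJ is known to bind, which reads TTCCCA on the other strand.
Grm3: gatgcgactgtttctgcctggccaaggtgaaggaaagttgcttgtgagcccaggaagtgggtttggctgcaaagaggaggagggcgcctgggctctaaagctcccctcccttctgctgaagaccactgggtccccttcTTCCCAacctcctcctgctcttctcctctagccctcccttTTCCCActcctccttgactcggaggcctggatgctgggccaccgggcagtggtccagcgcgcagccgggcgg
Gabrg1: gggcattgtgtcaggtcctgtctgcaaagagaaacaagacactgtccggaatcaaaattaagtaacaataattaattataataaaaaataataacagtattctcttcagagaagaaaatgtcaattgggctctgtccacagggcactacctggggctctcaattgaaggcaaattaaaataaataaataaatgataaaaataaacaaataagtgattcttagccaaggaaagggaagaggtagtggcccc
Gabra2: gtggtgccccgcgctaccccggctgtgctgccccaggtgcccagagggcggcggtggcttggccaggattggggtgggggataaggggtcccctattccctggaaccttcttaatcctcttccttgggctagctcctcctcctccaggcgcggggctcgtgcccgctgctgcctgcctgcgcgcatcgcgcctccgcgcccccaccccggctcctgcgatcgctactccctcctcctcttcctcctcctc
The Grm3 window held 2 matches, for which it was chosen, and the other windows held 0. A promoter of Grm8 also held 2. Between PDGF-p53-RBPjk and PDGF-p53 tumours Grm3 differed by -0.29 (limma, adjusted p = 0.985). Of 25 measured genes with a promoter in the table, 7 held TGGGAA in at least 1 promoter (28.0%). Over single promoters the share was 25.0% of 32 for the receptor genes and 21.6% of 32851 for all promoters of that length. These matches describe letters in the windows and were not tested for binding.

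In all 3 tumour types most changed receptor genes were lower than in normal brain. In PDGF-p53 tumours 2 of the 35 genes rose and 19 fell, beside 13.6% of all genes higher and 17.6% lower. In PDGF-p53-RBPjk tumours 1 rose and 19 fell (15.7% and 17.9% of all genes), and in p53-RBPjk tumours 1 rose and 22 fell (16.4% and 20.4%). The median difference of the 35 genes was -0.70, -0.80 and -1.23 in those tumours, against -0.04, -0.03 and -0.02 over all genes. After centring on 8 housekeeping genes 57.3%, 63.4% and 71.5% of all called genes were higher, against 43.5%, 46.6% and 44.5% without it, while 3, 2 and 2 receptor genes were higher and 16, 18 and 20 lower. Before centring, 2 of the 8 housekeeping genes rose in each type and 3, 3 and 4 fell. Their differences ranged over -1.14 to 1.21, -1.16 to 1.27 and -1.20 to 0.78, so this centring is not a neutral reference. Falls in every tumour type were seen for 18 receptor genes, 13 of them by at least 2-fold in each, and 1 receptor gene, Grik3, rose in every type. Of all genes 14.1% fell in every type, 5.16% by at least 2-fold in each, and 10.2% rose in every type, in comparisons that share their controls. Arrays did not overlap between tumour and normal brain for 1 gene higher and 17 lower in PDGF-p53 tumours (12.7% and 17.3% of all genes), 1 higher and 20 lower in PDGF-p53-RBPjk tumours (16.5% and 18%), and 2 higher and 23 lower in p53-RBPjk tumours (15.1% and 19.3%). Of the 35 genes, 10 did not pass the test in any tumour type, beside 55.2% of all genes.

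**Figure D1:**
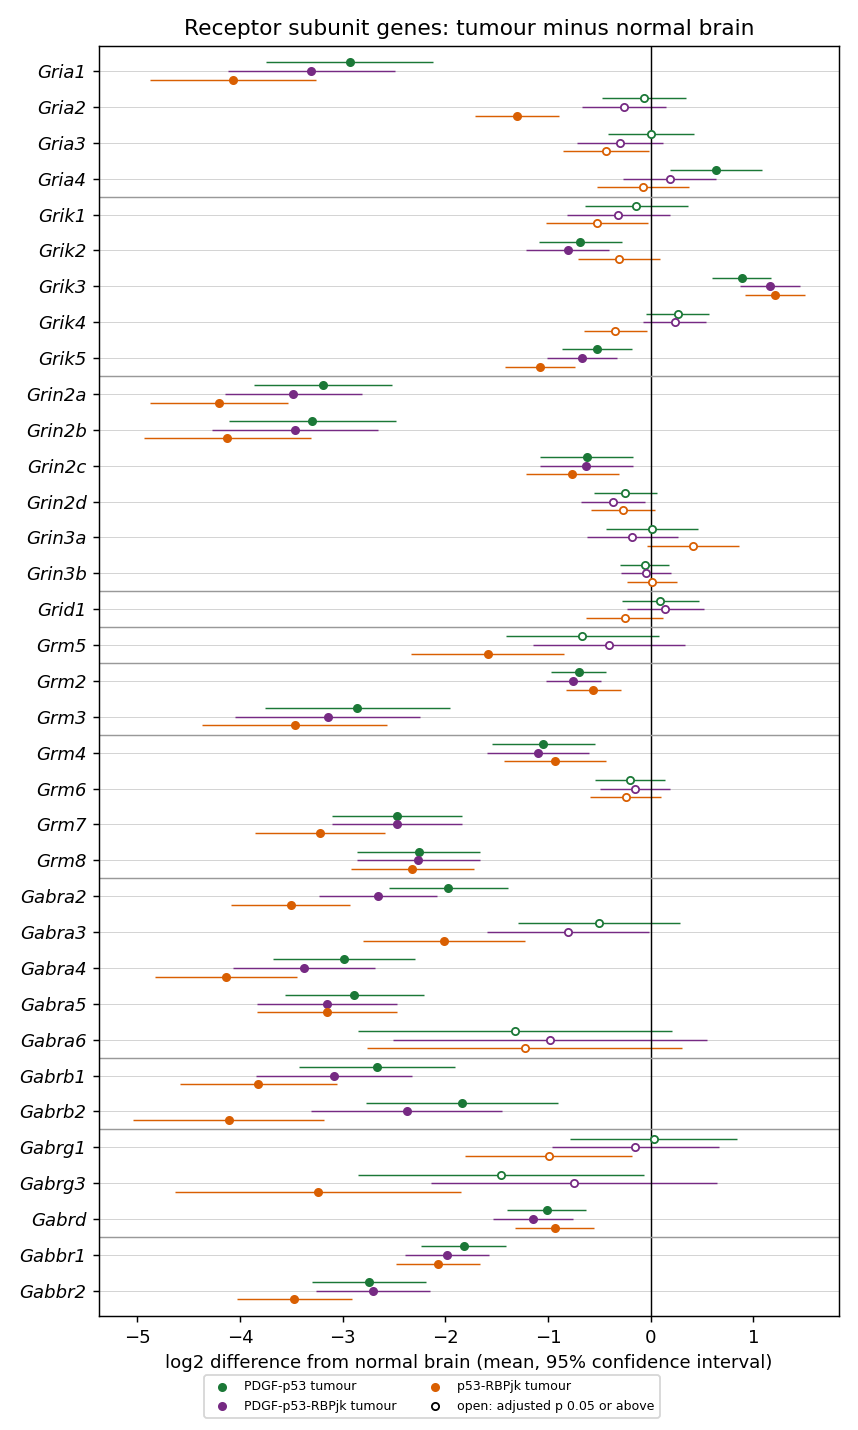
Log2 difference from normal brain (x axis, mean with 95% confidence interval) for the 35 measured receptor genes (y axis, grouped by receptor class) in PDGF-p53, PDGF-p53-RBPjk and p53-RBPjk tumours, 4 arrays a group. Filled points have an adjusted p under 0.05. Grik3 lies right of 0 in all 3 tumour types, while Gria1, Grin2a, Grin2b and Gabra4 lie near -3 to -4.

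Among the AMPA receptor genes, which mediate fast excitation, Gria1 fell steeply while Gria2, Gria3 and Gria4 stayed within 1 log2 unit of normal brain in both PDGF tumour types. Gria1, a subunit known for its activity-dependent delivery to synapses, measured 6.74, 7.20, 8.90 and 7.10 in PDGF-p53, 7.04, 7.00, 7.62 and 6.79 in PDGF-p53-RBPjk and 5.96, 5.83, 7.41 and 6.18 in p53-RBPjk tumours, against 10.18, 10.68, 10.44 and 10.37 in normal brain. Every tumour array lay below every control array, and the difference was -2.93, -3.30 and -4.07 in that order (SE 0.39 each; adjusted p = 1.35e-05, 3.11e-06 and 2.02e-07). Gria2, whose edited form makes AMPA channels impermeable to calcium, measured 11.18, 11.61, 11.65 and 11.20 in PDGF-p53, 11.48, 10.87, 11.32 and 11.20 in PDGF-p53-RBPjk and 10.78, 9.71, 9.94 and 10.24 in p53-RBPjk tumours, against 11.61, 11.34, 11.47 and 11.48 in normal brain. Only the p53-RBPjk arrays were all below the controls. Gria2 fell by 1.30 ± 0.19 (SE) there (adjusted p = 3.33e-05), and its difference was -0.06 (95% interval -0.48 to 0.35, adjusted p = 0.849) in PDGF-p53 and -0.26 (-0.67 to 0.15, adjusted p = 0.357) in PDGF-p53-RBPjk tumours. Gria3 differed by 0.00 (-0.41 to 0.42), -0.30 (-0.72 to 0.12) and -0.44 (-0.85 to -0.02), with adjusted p of 0.992, 0.284 and 0.0983.

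Gria4, a subunit with fast gating, measured 9.99, 10.13, 10.40 and 9.57 in PDGF-p53, 9.77, 8.97, 9.60 and 9.94 in PDGF-p53-RBPjk and 9.17, 9.67, 9.39 and 9.01 in p53-RBPjk tumours, against 9.24, 9.17, 9.38 and 9.76 in normal brain. The lowest PDGF-p53 array lay under the highest control array, so the groups overlapped. Gria4 rose in PDGF-p53 tumours by 0.64 ± 0.21 (SE, adjusted p = 0.0297) and its differences in PDGF-p53-RBPjk and p53-RBPjk tumours were 0.18 and -0.08 (adjusted p = 0.574 and 0.826). Against PDGF-p53 tumours the difference was -0.45 in PDGF-p53-RBPjk and -0.71 in p53-RBPjk tumours (adjusted p = 0.946 and 0.0602). The rise against normal brain no longer passed when control 1, 2 or 3 was left out (adjusted p = 0.0749, 0.0849 and 0.0582) and when PDGF-p53 array 1, 2 or 3 was (0.0544, 0.0697 and 0.0947).

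**Figure D2:**
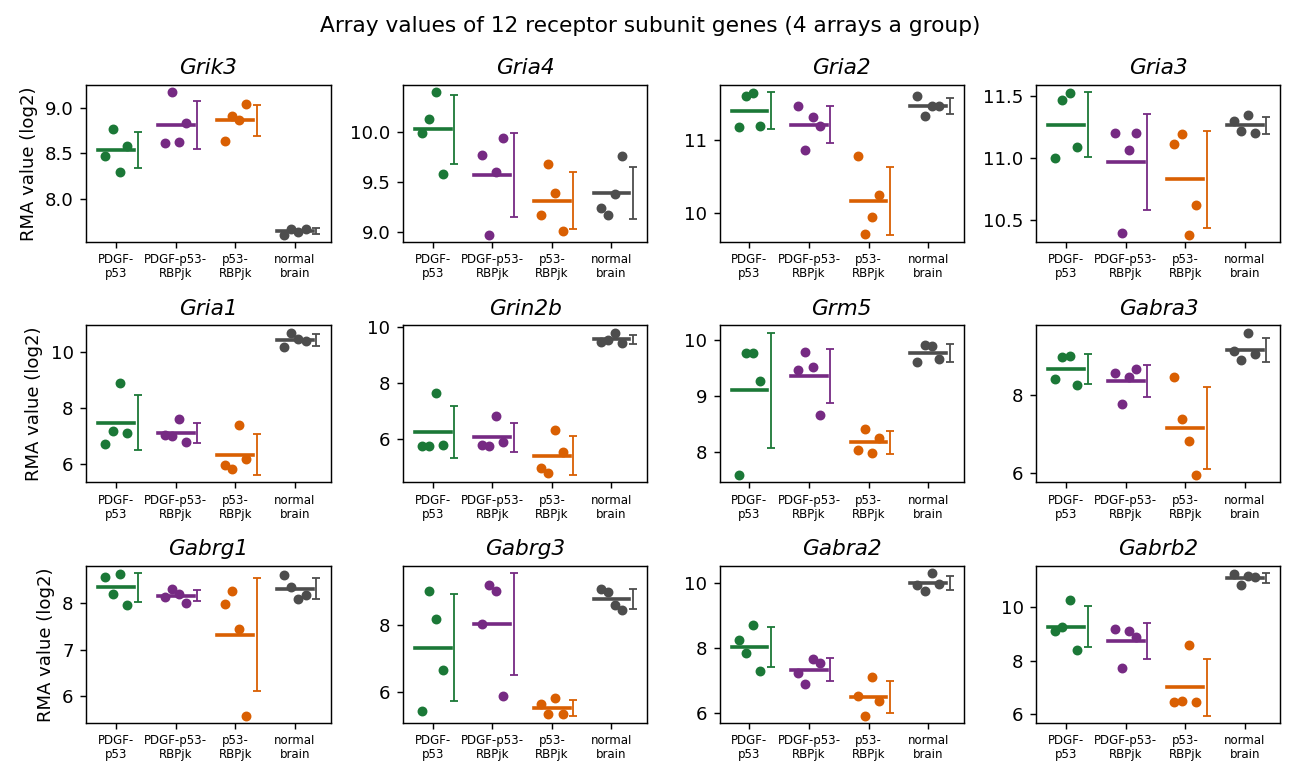
Log2 level (y axis) in each array (points, 4 per group) of selected receptor genes, with PDGF-p53, PDGF-p53-RBPjk and p53-RBPjk tumours left of normal brain the group mean as a bar and the SD as the whisker beside it. The Grik3 tumour arrays are all above the controls, and the Gria2 arrays are below the controls throughout in p53-RBPjk tumours.

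Of the kainate receptor genes, whose products form slower glutamate channels, Grik3 rose in every tumour type and Grik5 fell in every type. Grik3, a low-affinity subunit, measured 8.47, 8.77, 8.30 and 8.58 in PDGF-p53, 8.61, 9.17, 8.62 and 8.83 in PDGF-p53-RBPjk and 8.63, 8.91, 8.86 and 9.04 in p53-RBPjk tumours, against 7.61, 7.67, 7.63 and 7.67 in normal brain. All 12 tumour arrays were above all 4 controls. The rise was 0.89 (1.85-fold), 1.16 (2.24-fold) and 1.21 (2.32-fold) in that order (SE 0.14 each, adjusted p = 7.62e-05, 3.71e-06 and 1.61e-06), and each passed under all 25 alternatives of the fit. The differences between tumour types ranged from 0.05 to 0.33 and did not pass the test (adjusted p = 0.946, 0.191 and 0.902).

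Grik5, a high-affinity subunit that forms channels only with partners, fell, with differences of -0.53, -0.67 and -1.08 (adjusted p = 0.0188, 0.00348 and 3.45e-05). In PDGF-p53 tumours that call was lost without control 3 (-0.46, adjusted p = 0.0622) and without PDGF-p53 array 1 (-0.34, adjusted p = 0.0751). Grik2, a widely expressed pore-forming subunit, fell, with differences of -0.68 and -0.81 in PDGF-p53 and PDGF-p53-RBPjk tumours (adjusted p = 0.0101 and 0.0028) and differed by -0.31 in p53-RBPjk tumours (adjusted p = 0.231). Its differences between p53-RBPjk tumours and the PDGF types were 0.37 and 0.50 (adjusted p = 0.309 and 0.181). Centred on 8 housekeeping genes, the PDGF-p53 differences of Grik2 and Grik5 had adjusted p of 0.0572 and 0.0755. Grik1 differed by -0.14, -0.31 and -0.52 and Grik4, the other high-affinity subunit, by 0.27, 0.23 and -0.34, and neither passed the test in any type. With housekeeping centring Grik4 was 0.37 higher in PDGF-p53 and in PDGF-p53-RBPjk tumours (adjusted p = 0.0413 and 0.0384).

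The NMDA receptor genes Grin2a and Grin2b, which set the gating of these calcium-permeable channels, were among the most reduced of the set. Grin2a measured 6.05, 6.12, 7.25 and 5.97 in PDGF-p53, 5.68, 5.59, 6.82 and 6.14 in PDGF-p53-RBPjk and 4.87, 4.91, 6.24 and 5.33 in p53-RBPjk tumours, against 9.52, 9.47, 9.61 and 9.57 in normal brain. Grin2b measured 5.78, 5.78, 7.65 and 5.81, then 5.80, 5.78, 6.85 and 5.91, then 4.98, 4.83, 6.35 and 5.55 in the same tumours, against 9.47, 9.51, 9.79 and 9.43 in normal brain. For both genes no tumour array reached the controls, and array 3 was the highest of its group in each tumour type. Grin2a fell, with differences of -3.19, -3.48 and -4.20 (SE 0.32, adjusted p = 7.3e-07, 2.52e-07 and 1.99e-08), and Grin2b fell, with differences of -3.30, -3.47 and -4.12 (SE 0.38, adjusted p = 3.84e-06, 1.82e-06 and 1.74e-07). 

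Grin2c, known from cerebellar granule cells and astrocytes, fell, with differences of -0.62, -0.63 and -0.76 (adjusted p = 0.0349, 0.0315 and 0.0089). Its call was lost in PDGF-p53 tumours without control 1, 2 or 4 or PDGF-p53 array 1 or 2 (adjusted p = 0.0704, 0.0562, 0.0851, 0.124 and 0.134). In PDGF-p53-RBPjk tumours it was lost without control 1, 2 or 4 or array 1 or 2 of that type (0.0654, 0.0506, 0.0767, 0.0739 and 0.0839). After housekeeping centring Grin2c passed in no tumour type (adjusted p = 0.145, 0.156 and 0.114). Grin2d, which is prominent in early development, differed by -0.24, -0.37 and -0.27, with no call. Grin3a, a subunit that lowers calcium flow, measured 8.69, 8.23, 8.60 and 8.36 in p53-RBPjk tumours, against 8.10, 7.93, 8.11 and 8.09 in normal brain. Its groups did not overlap and the difference of 0.41 did not pass the test (adjusted p = 0.147, or 0.0358 with a difference of 0.68 after housekeeping centring). In PDGF-p53 and PDGF-p53-RBPjk tumours it was 0.01 and -0.18. Grin3b differed by -0.06, -0.05 and 0.01. Grid1, a delta receptor that binds synaptic adhesion proteins, differed by 0.10, 0.14 and -0.25, without a call.

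Most metabotropic receptor genes fell, by amounts from under 1 to over 3 log2 units. Grm3, an adenylyl-cyclase-inhibiting receptor that astrocytes also express, measured 6.24, 6.15, 8.84 and 6.18 in PDGF-p53, 6.34, 6.69, 6.70 and 6.52 in PDGF-p53-RBPjk and 6.49, 5.92, 6.71 and 5.85 in p53-RBPjk tumours, against 10.11, 9.70, 9.49 and 9.55 in normal brain. All tumour arrays lay below the controls, with PDGF-p53 array 3 within 1 unit of them. Grm3 fell, with differences of -2.86, -3.15 and -3.47 (SE 0.43, adjusted p = 5.37e-05, 1.67e-05 and 4.28e-06). Grm2, its paralogue, fell, with differences of -0.70, -0.75 and -0.56 (adjusted p = 0.000349, 0.00015 and 0.00191). The last of these was -0.29 after housekeeping centring (adjusted p = 0.145).

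Grm5, a receptor that signals through phospholipase C, measured 7.60, 9.77, 9.77 and 9.26 in PDGF-p53, 9.47, 9.79, 9.51 and 8.67 in PDGF-p53-RBPjk and 8.05, 8.42, 7.98 and 8.26 in p53-RBPjk tumours, against 9.61, 9.90, 9.89 and 9.65 in normal brain. One PDGF-p53 array was lower than every p53-RBPjk array, while the p53-RBPjk arrays were all under the controls. Grm5 fell in p53-RBPjk tumours by 1.59 ± 0.35 (SE, adjusted p = 0.0015) and differed by -0.66 and -0.40 in PDGF-p53 and PDGF-p53-RBPjk tumours (adjusted p = 0.177 and 0.432). Between p53-RBPjk tumours and PDGF-p53 or PDGF-p53-RBPjk tumours the difference was -0.92 and -1.18 (adjusted p = 0.144 and 0.0778), and without PDGF-p53 array 1 it was -1.42 and -1.18 (0.00117 and 0.00432). Among the presynaptic receptors, Grm7 fell, with differences of -2.47, -2.47 and -3.22 (adjusted p = 5.96e-06, 5.09e-06 and 1.74e-07), Grm8 with -2.26, -2.27 and -2.32 (8.6e-06, 6.92e-06 and 3.82e-06) and Grm4 with -1.05, -1.10 and -0.93 (0.0023, 0.00135 and 0.00437). Grm6, known from retinal bipolar cells, differed by -0.20, -0.15 and -0.24 with no call.

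GABA-A receptor alpha subunit genes, which set where a receptor sits and how it responds, fell in most cases. Gabra2, a synaptic subunit, measured 8.25, 7.83, 8.71 and 7.29 in PDGF-p53, 7.24, 6.89, 7.67 and 7.54 in PDGF-p53-RBPjk and 6.53, 5.92, 7.11 and 6.35 in p53-RBPjk tumours, against 9.94, 9.76, 10.30 and 9.96 in normal brain. No tumour array reached the controls, and Gabra2 fell, with differences of -1.97, -2.65 and -3.51 (SE 0.27, adjusted p = 2.37e-05, 8.38e-07 and 2.62e-08). Gabra4, found mainly outside synapses, fell, with differences of -2.99, -3.38 and -4.14 (adjusted p = 2.05e-06, 4.66e-07 and 3e-08), and Gabra5, best known from hippocampus, with -2.89, -3.15 and -3.15 (2.44e-06, 7.82e-07 and 4.91e-07).

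Gabra3 measured 8.40, 8.98, 9.00 and 8.26 in PDGF-p53, 8.56, 7.75, 8.47 and 8.66 in PDGF-p53-RBPjk and 8.46, 7.39, 6.81 and 5.94 in p53-RBPjk tumours, against 9.12, 8.89, 9.60 and 9.04 in normal brain. The p53-RBPjk arrays spread over more than 2 units. Gabra3 fell there by 2.02 ± 0.37 (SE, adjusted p = 0.000303) and differed by -0.50 and -0.80 in PDGF-p53 and PDGF-p53-RBPjk tumours (adjusted p = 0.354 and 0.114). Gabra6, a subunit of cerebellar granule cells, read 3.55 to 4.57 in all tumours, against 3.85, 3.80, 3.95 and 8.69 in normal brain. One control array thus stood far above the others, and no difference passed the test (adjusted p = 0.195, 0.344 and 0.213). Without control 4 the differences were -0.11, 0.22 and -0.02. Grm4, also abundant in cerebellar granule cells, was highest in the same array (7.19, against 5.82 to 6.18 in the other controls), and without it fell, with differences of -0.74, -0.80 and -0.63. Other members did not stand out in that array. Grin2c, known from the same cells, read 7.29 there, against 7.02 to 7.19 in the other controls. Gabrd read 6.77, against 6.47 to 6.80.

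Beta subunit genes, whose products contribute to the GABA binding site, fell in every tumour type. Gabrb2 measured 9.11, 9.25, 10.28 and 8.41 in PDGF-p53, 9.17, 7.74, 9.09 and 8.90 in PDGF-p53-RBPjk and 6.44, 6.49, 8.57 and 6.46 in p53-RBPjk tumours, against 11.25, 10.84, 11.17 and 11.15 in normal brain. In 3 of the 4 p53-RBPjk arrays the level was under every PDGF tumour array, and array 3 was not. Gabrb2 fell, with differences of -1.84, -2.38 and -4.11 (SE 0.44, adjusted p = 0.00364, 0.000379 and 8.99e-07), and Gabrb1 fell, with differences of -2.67, -3.09 and -3.82 (adjusted p = 1.87e-05, 3.3e-06 and 2.02e-07).

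Gamma subunit genes and their genomic neighbours were set side by side, with no test between genes. Gabrg1, which is known from glia and some neurons, lies beside Gabra2 and, with Cox7b2 between Gabra2 and Gabra4, in a run that continues to Gabrb1. Gabrg1 measured 8.57, 8.21, 8.63 and 7.97 in PDGF-p53, 8.14, 8.30, 8.21 and 8.02 in PDGF-p53-RBPjk and 8.00, 8.27, 7.45 and 5.57 in p53-RBPjk tumours, against 8.62, 8.35, 8.10 and 8.19 in normal brain. All PDGF tumour arrays stayed within 1 unit of the controls, and p53-RBPjk array 4 was far below the others. Its differences were 0.03 (95% interval -0.79 to 0.85), -0.15 (-0.96 to 0.67) and -0.99 (-1.81 to -0.18), with adjusted p of 0.966, 0.82 and 0.0534, while Gabra2, Gabra4 and Gabrb1 fell in every tumour type. Without p53-RBPjk array 1 or 2 the last difference was -1.22 or -1.31 (adjusted p = 0.0259 and 0.0115), and without array 4 it was -0.41. Over all refits that left out 1 array its adjusted p ranged up to 0.128.

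Gabrg3, next to Gabra5, measured 5.45, 9.03, 8.18 and 6.67 in PDGF-p53, 8.04, 9.19, 9.03 and 5.90 in PDGF-p53-RBPjk and 5.66, 5.35, 5.83 and 5.36 in p53-RBPjk tumours, against 9.08, 9.00, 8.61 and 8.46 in normal brain. Within each PDGF type some arrays were at the control level and others over 2 units lower. Gabrg3 fell by 3.24 ± 0.66 (SE, adjusted p = 0.000732) in p53-RBPjk tumours and differed by -1.45 and -0.75 in PDGF-p53 and PDGF-p53-RBPjk tumours (adjusted p = 0.11 and 0.441). Without PDGF-p53 array 2 the difference in PDGF-p53 tumours was -2.02 (adjusted p = 0.0253), and without PDGF-p53-RBPjk array 4 it had an adjusted p of 0.0457. Without PDGF-p53 array 1 it was -0.83, and over all refits that left out 1 array its adjusted p ranged up to 0.377. Gabrd, a subunit of receptors for tonic inhibition, fell, with differences of -1.01, -1.15 and -0.94 (adjusted p = 0.000341, 8.94e-05 and 0.000516).

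Both GABA-B receptor genes fell in all tumour types. Gabbr1, the GABA-binding partner, measured 7.39 to 8.49 in PDGF-p53, 7.32 to 7.93 in PDGF-p53-RBPjk and 7.29 to 7.75 in p53-RBPjk tumours, against 9.57 to 9.69 in normal brain, and fell, with differences of -1.82, -1.98 and -2.07 (adjusted p = 1.55e-06, 5.46e-07 and 1.95e-07). Gabbr2, the partner that couples to G proteins, measured 6.95 to 8.50, 7.01 to 8.05 and 6.70 to 6.92 in the same tumours, against 10.06 to 10.64 in normal brain, and fell, with differences of -2.75, -2.71 and -3.47 (adjusted p = 5.06e-07, 4.97e-07 and 2.1e-08).

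The receptor genes were set beside the neuron markers, with no test between the 2 lists. The 15 neuron markers themselves ranged from -3.61 to -0.55 in PDGF-p53, -3.78 to -0.74 in PDGF-p53-RBPjk and -5.27 to -0.54 in p53-RBPjk tumours. At or below the median neuron marker difference of a tumour type lay 6 genes in PDGF-p53, 8 in PDGF-p53-RBPjk and 6 in p53-RBPjk tumours, while 18, 19 and 15 genes lay within 1 log2 unit of normal brain. The 95% interval lay wholly inside 1 unit for 12, 11 and 10 genes. The share of all genes within these limits was not counted. Grin2d, Grin3b and Grm6, within 1 unit in each type, averaged 5.44, 5.60 and 5.64 in normal brain. These levels lay under every array median (5.97 to 6.06) and leave little room for a fall. PDGF-p53 array 3 had both the highest neuron marker mean of the PDGF-p53 arrays and the highest level for 24 of the 35 receptor genes, against 23.4% of all genes. That array also had the highest PDGF-p53 means of astrocyte markers (8.77, others 7.52 to 8.01) and mature oligodendrocyte markers (8.45, others 6.35 to 7.35). Its means of oligodendrocyte precursor markers (9.56, others 9.66 to 9.82) and proliferation markers (8.67, others 8.85 to 9.34) were the lowest. Which of these lists the receptor levels follow was not tested. Array 3 also had the highest neuron marker mean of the PDGF-p53-RBPjk tumours (8.43), of the p53-RBPjk tumours (7.75) and of the controls (10.66). It had the highest level for 13 of the 35 genes in PDGF-p53-RBPjk tumours (17.5% of all genes), 16 in p53-RBPjk tumours (19.3%) and 15 in normal brain (26.3%). The part of host brain in the tumour arrays was not tested.

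**Figure D3:**
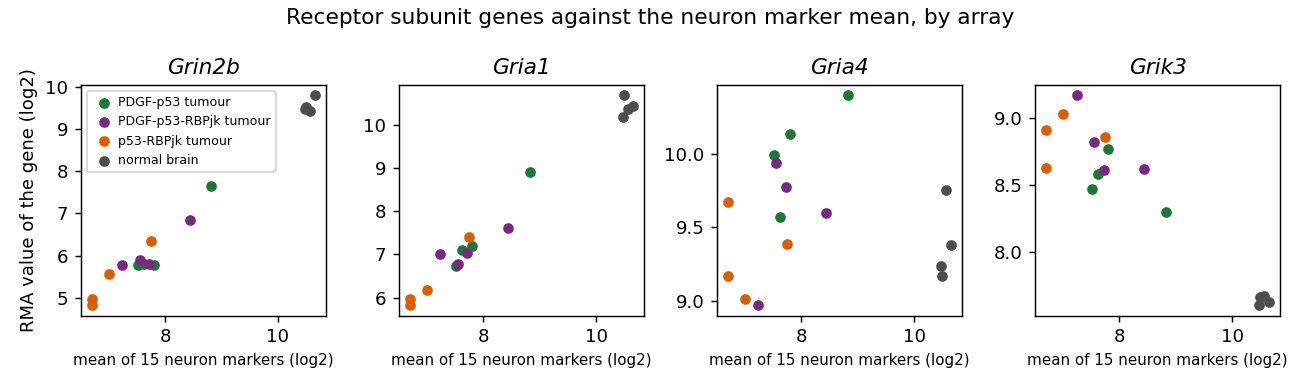
Log2 level of receptor genes (y axis) against the mean of the 15 neuron markers (x axis, log2) in each of the 16 arrays, coloured by group. Among PDGF-p53 tumours array 3 has the highest neuron marker mean, at 8.82, and also the highest astrocyte and mature oligodendrocyte marker means, which are not drawn.

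Direct comparison of the tumour types addressed loss of RBPJ with PDGF present and the difference between the PDGF-virus and Hes5::CreERT2 models. Between PDGF-p53-RBPjk and PDGF-p53 tumours limma called 0 of the 35 genes (0.0201% of all genes in either direction). An unadjusted limma p under 0.05 was reached by 2 of the 35, a share near that of all genes (1033 of 19938). The 2 receptor genes were Gabra2 at -0.69 (95% interval -1.26 to -0.11, adjusted p = 0.862) and Gria4 at -0.45 (-0.91 to 0.00, adjusted p = 0.946). The differences ranged up to 0.71 for Gabrg3. Between p53-RBPjk and PDGF-p53 tumours 6 genes were lower in p53-RBPjk tumours and 0 higher (3.61% and 1.93% of all genes). Between p53-RBPjk and PDGF-p53-RBPjk tumours 4 were lower and 0 higher (2.63% and 0.637%). Arrays did not overlap for 5 genes lower in p53-RBPjk than PDGF-p53 tumours (5.08% of all genes) and for 6 lower than in PDGF-p53-RBPjk tumours (6.25%). Both comparisons differ in virus, driver and cell targeted, and p53-RBPjk and PDGF-p53 tumours also differ in RBPjk genotype, and these cannot be told apart. After housekeeping centring 73.5% and 43.6% of all called genes were higher in p53-RBPjk tumours, and after quantile renormalisation 48.1% and 34.7%, against 34.8% and 19.5% without either. Of the 15 neuron markers 5 were lower in p53-RBPjk than PDGF-p53 tumours and 2 lower than in PDGF-p53-RBPjk tumours, and of the 10 astrocyte markers 3 and 1 were. Their part in these differences was not tested.

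Gria2 was lower in p53-RBPjk tumours by 1.24 ± 0.19 (SE) against PDGF-p53 (adjusted p = 0.00175) and by 1.05 ± 0.19 against PDGF-p53-RBPjk (adjusted p = 0.00855), with no overlap of arrays in either, and no alternative ended these calls. Gabrb2 differed by -2.27 ± 0.44 (adjusted p = 0.00697) against PDGF-p53 and by -1.73 ± 0.44 (0.0397) against PDGF-p53-RBPjk. Gabra2 differed by -1.54 ± 0.27 against PDGF-p53 (adjusted p = 0.00394), with no overlap. Gabra3 differed by -1.51 ± 0.37 and Gabra4 by -1.15 ± 0.33 against the same tumours (adjusted p = 0.0242 and 0.0484). Grik4 measured 6.46, 6.81, 6.16 and 6.66 in p53-RBPjk tumours, below all arrays of PDGF-p53 (6.98, 7.40, 6.97 and 7.17) and PDGF-p53-RBPjk tumours (7.02, 7.11, 7.25 and 7.01). Its difference was -0.61 ± 0.15 (adjusted p = 0.0207) against the first and -0.58 ± 0.15 (0.0383) against the second. Gabrg3 differed by -2.49 ± 0.66 against PDGF-p53-RBPjk tumours (adjusted p = 0.0483). Leaving out 1 array ended some of these calls. Of 16 such refits, 4 for Gabra3 (adjusted p up to 0.0777), 11 for Gabra4 (up to 0.142), 2 and 7 for Grik4 against PDGF-p53 and PDGF-p53-RBPjk tumours (up to 0.0763 and 0.137), 10 for Gabrb2 against PDGF-p53-RBPjk tumours (up to 0.133) and 12 for Gabrg3 (up to 0.166) no longer passed.

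Partner genes of these receptors were counted in lists by function. For all these lists, the shares of all genes were 13.6%, 15.7% and 16.4% higher and 17.6%, 17.9% and 20.4% lower. These are for PDGF-p53, PDGF-p53-RBPjk and p53-RBPjk tumours against normal brain. Among 14 auxiliary subunits of AMPA and kainate receptors, which steer their trafficking and gating, 2 rose and 7 fell in PDGF-p53, 2 rose and 7 fell in PDGF-p53-RBPjk, and 1 rose and 10 fell in p53-RBPjk tumours (medians -0.57, -0.49 and -0.91). Cacng3 fell, with differences of -3.46, -3.81 and -4.73, Cacng2 (stargazin) with -3.37, -3.35 and -3.73, Cnih3 with -1.98, -2.12 and -2.74 and Cnih2 with -1.84, -1.99 and -2.46. The members that rose, named after their values were seen, were Cacng4, an AMPA receptor trafficking subunit, and Neto2, a kainate receptor partner. Cacng4 rose by 1.88, 1.95 and 1.50 (adjusted p = 3.87e-06, 2.21e-06 and 2.65e-05). Neto2 rose by 0.80 and 0.65 in PDGF-p53 and PDGF-p53-RBPjk tumours (adjusted p = 0.00232 and 0.00933) and differed by 0.19 in p53-RBPjk tumours (0.454).

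**Figure D4:**
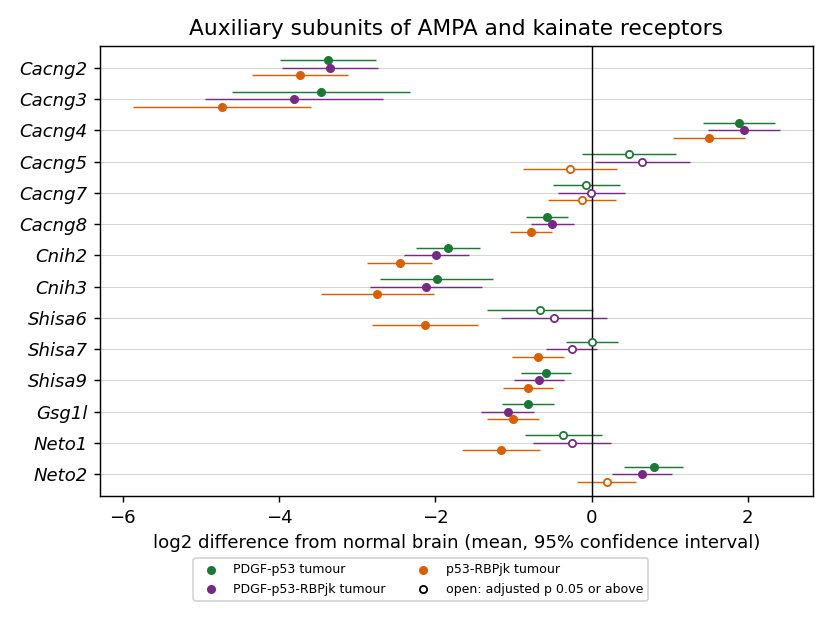
Log2 difference from normal brain (x axis, mean with 95% confidence interval) of 14 auxiliary subunits of AMPA and kainate receptors (y axis) in the 3 tumour types. Filled points have an adjusted p under 0.05. Cacng4 lies right of 0 in each tumour type, while Cacng2 and Cacng3 lie below -3.

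Excitatory postsynaptic scaffold genes fell in 13 of 17 measured cases in each tumour type, with 0 called higher and medians of -0.94, -0.94 and -1.16. Dlg2 fell, with differences of -2.82, -3.06 and -4.18, and Dlg4 (PSD-95) with -1.52, -1.55 and -2.12. Shank1 fell, with differences of -1.79, -2.12 and -2.16 and Dlgap2 with -1.77, -1.53 and -2.13. Of 8 inhibitory postsynaptic and GABA-B auxiliary genes, 3, 4 and 5 fell and 1, 0 and 0 rose. Kctd16, a GABA-B auxiliary subunit, fell, with differences of -1.74, -1.95 and -2.42, and Gabarapl1 with -0.97, -1.06 and -1.31. Kctd12b, a paralogue of the GABA-B partner Kctd12, rose in PDGF-p53 tumours, with a difference of 1.05 (adjusted p = 0.00232), and differed by 0.58 and 0.26 in PDGF-p53-RBPjk and p53-RBPjk tumours. Gphn, the inhibitory synapse scaffold gephyrin, differed by -0.09 and -0.18 in the PDGF types and fell by 0.66 in p53-RBPjk tumours (adjusted p = 0.0153).

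All 7 measured genes of GABA synthesis, transport and breakdown fell in each tumour type, with medians of -1.72, -1.98 and -1.94. Gad2, which makes GABA, fell, with differences of -3.24, -2.90 and -3.53, and so did Gad1, with -2.04, -2.08 and -2.42. Abat, which breaks GABA down, fell, with differences of -1.94, -1.98 and -2.52, and Slc6a11, a GABA transporter of astrocytes, with -1.63, -1.99 and -1.71.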

How the data were processed

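Total RNA was extracted with Trizol, labelled with biotin and hybridised to Affymetrix arrays, per the labels' protocols. The deposited table holds log2 values that the authors summarised with RMA in oligo, per the submitters' processing notes. No version or annotation build is given in the sources used here. Array medians were 5.97 to 6.06 and arrays of a group correlated at 0.967 to 0.984, so no further scaling was applied. The number of arrays limits the precision.

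Of 35556 probe sets, 21789 carried 1 symbol, 1621 several and 12146 none. Those with 1 symbol gave 19938 genes, and the probe set with the highest mean was used for the 999 genes with several. One limma 3.58.1 fit (R 4.3.3) over all 16 arrays, with moderated variances and 12 residual degrees of freedom, gave 6 comparisons, and p-values were adjusted by Benjamini and Hochberg over 19938 genes per comparison. The script was tested on simulated data. Members and lists were chosen with earlier results of these data known. All members are described, with up to 4 genes per partner list taken by the size of the largest difference among genes called. Replicate number was not part of the main fit. Deviations of same-numbered arrays correlated at -0.12 to 0.18, and whether such arrays share a batch was not tested.

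Alternatives were the mean or every probe set, a filter at a mean of 6, centring on 8 housekeeping genes, quantile renormalisation, trend with robust variances, array weights, only the groups compared, a replicate block, leaving out each of 16 arrays and a minimum difference of 1.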

Additional observations from a re-analysis of the deposited data

Results flagged for a closer look

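Of 140 sets of 4 arrays (35 receptor genes in 4 groups), 17 held 1 array far from the other 3 by Dixon's test, where chance gives about 1 in 20 sets, or 7. The 35 genes were read on the same arrays, so the sets are not independent and the excess over 7 was not tested. In PDGF-p53 tumours array 3 was high for Grin2a (7.25, others 5.97 to 6.12), Grin2b (7.65, others 5.78 to 5.81), Grm3 (8.84, others 6.15 to 6.24), Grm8 (6.36, others 4.93 to 5.04) and Gabrb1 (7.72, others 5.72 to 5.99), and array 1 was low for Grik5 (6.80, others 7.48 to 7.58). In PDGF-p53-RBPjk tumours array 3 was high for Grin2b (6.85, others 5.78 to 5.91) and array 2 for Grin3b (5.63, others 5.53 to 5.54). In p53-RBPjk tumours array 3 was high for Gabra5 (5.82, others 4.68 to 4.75) and Gabrb2 (8.57, others 6.44 to 6.49), and array 1 was low for Gabra6 (3.55, others 3.92 to 3.96).

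Among the controls, array 2 was high for Grik4 (7.14, others 6.76 to 6.78) and Gabra4 (10.31, others 9.54 to 9.64) and low for Grin3a (7.93, others 8.09 to 8.11). Control array 1 was low for Gabra5 (7.44, others 8.33 to 8.43) and Gabrd (6.47, others 6.75 to 6.80), and array 4 was high for Gabra6 (8.69, others 3.80 to 3.95). The brain region dissected from control 4 is not stated.

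The tumour types differed from each other, by limma's adjusted p, for 10 results. Against PDGF-p53 tumours, p53-RBPjk tumours differed by -1.24 for Gria2, -0.61 for Grik4, -1.54 for Gabra2, -1.51 for Gabra3, -1.15 for Gabra4 and -2.27 for Gabrb2. Against PDGF-p53-RBPjk tumours they differed by -1.05 for Gria2, -0.58 for Grik4, -1.73 for Gabrb2 and -2.49 for Gabrg3.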

How the results depend on the processing

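Single-gene results were recomputed under 25 alternatives, on 156 of the 210 results for the filter at a mean of 6 and not for the minimum difference of 1, which was applied to counts alone. In these no called result changed sign. Counts that moved by over 1.5 times were these. The 4 calls between p53-RBPjk and PDGF-p53-RBPjk tumours became 1 with every probe set tested, 1 with housekeeping centring, 1 with quantile renormalisation, 2 with trend and robust variances, 7 with array weights and 2 with only the 2 groups fitted. The 6 calls between p53-RBPjk and PDGF-p53 tumours became 2 with only the 2 groups fitted and 10 with the replicate number as a block. Genes higher than in normal brain became 2 in PDGF-p53-RBPjk tumours with housekeeping centring, 2 in p53-RBPjk tumours with that centring or with only the 2 groups fitted, and 0 in PDGF-p53 tumours with a minimum difference of 1. The cause was not tested. Housekeeping centring moved the median of all genes by 0.11 in PDGF-p53, 0.14 in PDGF-p53-RBPjk and 0.26 in p53-RBPjk tumours against normal brain.

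Leaving out each array in turn gave 17 to 20, 18 to 20 and 22 to 25 genes lower in PDGF-p53, PDGF-p53-RBPjk and p53-RBPjk tumours than in normal brain, and 1 to 2, 1 to 1 and 1 to 1 higher. Calls between tumour types ranged over 3 to 10 for p53-RBPjk against PDGF-p53, 1 to 5 for p53-RBPjk against PDGF-p53-RBPjk and 0 to 0 for PDGF-p53-RBPjk against PDGF-p53. The labels do not say that arrays with the same replicate number share a source. In each comparison 1 to 4 of 8 arrays correlated best with their own number, and a shared batch was not tested. Deviations of array 3 correlated at 0.16 to 0.18 between the 3 tumour types, and array 3 had the highest neuron marker mean in each of the 4 groups. Under the replicate block 203 of 210 single-gene results kept their side of the threshold and 7 were gained. These were Gria1, Grin2a, Grin2b and Gabrb1 for p53-RBPjk against PDGF-p53 tumours (adjusted p = 0.022, 0.00833, 0.0382 and 0.0132), Gabra2 for p53-RBPjk against PDGF-p53-RBPjk tumours (0.0223), and Grik4 and Gabrg1 for p53-RBPjk tumours against normal brain (0.0467 and 0.028). Probe sets near the array's low end leave little room to measure a fall.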
